A study of Mus musculus with 8 samples.

Results

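The genes of WNT signaling described here were 52 of the 43346 genes in the count table. They were all genes annotated as protein-coding whose symbol begins with Wnt, Fzd, Sfrp, Dkk or Rspo followed by a number, together with Axin1, Axin2, Lrp5, Lrp6, Frzb, Wif1, Lef1, Tcf7, Tcf7l1, Tcf7l2 and Ctnnb1. The rule itself uses symbols and annotation and no measured level, but it was set with earlier results of these data known. They comprise 19 WNT ligands, 4 R-spondins (agonists), 12 receptors and co-receptors, 10 secreted antagonists, beta-catenin with the 2 axins, and 4 transcription factors.

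WNT proteins are secreted glycoproteins that bind frizzled receptors and, in the canonical branch, the co-receptors LRP5 and LRP6. Binding halts the destruction of beta-catenin by the complex that axin scaffolds, and beta-catenin then acts in the nucleus with TCF and LEF proteins. Frizzled-related proteins and WIF1 bind the ligands themselves, Dickkopf proteins such as DKK1 bind the co-receptors, and R-spondins keep receptors at the cell surface. The pathway shapes the heart in the embryo, and in the adult heart it is known mainly for its activity after injury and during fibrosis.

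Ventricular RNA was sequenced from 8 C57BL/6 mice, all male. Of these, 4, the LLC1 or tumor-bearing group, had received 1000000 LLC1 lung adenocarcinoma cells at 7 weeks of age, and 4 had received the PBS vehicle at that age. All were sampled 14 days after injection, and mice are named by group and by the code in their label (LLC1 1-2, 1-3, 1-5 and 2-2, PBS 1-1, 1-3, 2-1 and 2-5). The comparison asks which transcripts of the ventricle differ in mice that carry the tumor. LLC1 is a single mouse cell line, the labels name no engineered allele of the mice, and both groups share strain, sex and age.

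The libraries held between 15342214 and 19747596 counts in LLC1 mice and between 12480706 and 16192158 in PBS mice. Levels are counts per 1000000 counts (CPM) after TMM scaling, where 1 CPM stood for 11.7 to 19.9 counts, and genes are compared with each other only as CPM per kilobase of the length listed in the file. Genes that passed edgeR's filter on low counts (16111 genes) were tested with its quasi-likelihood test, and adjusted p is the Benjamini-Hochberg value over all of these genes, with 0.05 as the threshold. Log2 fold changes are LLC1 over PBS, with standard errors (SE) and 95% intervals from that test. The summed level of 10 cardiomyocyte markers was 118272 to 126921 CPM in LLC1 mice and 109289 to 122249 CPM in PBS mice. PBS 1-1 stood apart from the other PBS mice, with the lowest TMM factor of all libraries, and calls among the 52 genes and the wider pathway that change without it are given both ways. The ventricle is a mixture of cell types, and fewer cells of a type and less RNA per cell cannot be told apart in these bulk samples.

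Of the 52 genes, 27 passed the filter and 25 did not. Among the 27, 0 were higher and 1, Dkk3, was lower in LLC1 mice at an adjusted p under 0.05, a share of 3.7%. The share called among all genes tested was 8.73%, made up of 4.12% higher and 4.61% lower. An unadjusted p under 0.05 was reached by 5 of the 27 genes (18.5%), against 25.5% of all genes tested. Of these 5, Dkk3, Frzb, Wnt5a and Fzd2 had lower means in LLC1 mice and only Axin1 had a higher one. DESeq2 and limma-voom also called 0 genes higher, while DESeq2 called 2 lower and limma-voom 1. The 4 LLC1 values lay wholly to one side of the 4 PBS values for 2 genes, Dkk3 and Lrp6 (7.41%), against 17.2% of all genes. The log2 fold change was positive for 10 genes and negative for 17, with a median of -0.04 where all genes had -0.01, and it ranged from -0.90 (Dkk3) to 0.73 (Rspo1). For 16 of the 27 genes the whole 95% interval lay within 1.5-fold in either direction. For the other 11, Dkk3 included, a difference larger than that lay within the interval.

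**Figure D1:**
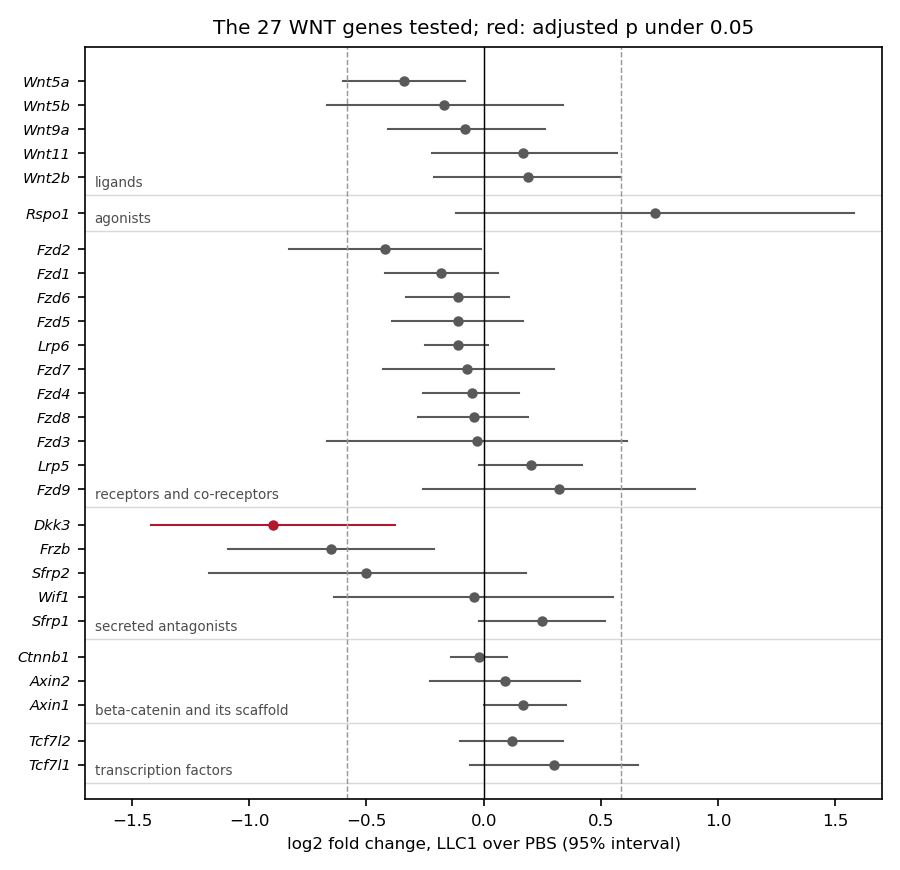
Log2 fold change (x axis, LLC1 over PBS) with its 95% interval for each of the 27 genes tested, grouped by role. Dashed lines mark 1.5-fold in either direction. Dkk3, in red, is the only gene with an adjusted p under 0.05, and the interval of Rspo1 is the widest.

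Among the ligands, 5 of 19 were tested and none passed the threshold in edgeR's test. Per kilobase, Wnt9a had the highest mean level in both groups, at 2.26 CPM per kilobase in LLC1 and 2.39 in PBS mice, or 27.7% and 28.2% of the summed ligand level. Wnt5a followed in PBS mice at 1.91, and their ranges were apart there (2.22 to 2.51 against 1.65 to 2.13), while in LLC1 mice the lowest value of Wnt9a (1.81 to 2.99) met the highest of Wnt5a (1.29 to 1.81) and lay above the range of Wnt11 (1.24 to 1.77). Wnt11, Wnt5b and Wnt2b had mean levels of 1.40, 1.15 and 0.996 CPM per kilobase in PBS mice, and their ranges overlapped. The ligands tested included Wnt5a and Wnt11, best known for signaling that does not pass through beta-catenin.

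Wnt9a (ENSMUSG00000000126, chromosome 11, 59306928 to 59333552 of mm10) stood at 6.02, 7.70, 6.40 and 9.96 CPM in LLC1 mice 1-2, 1-3, 1-5 and 2-2 and at 7.38, 7.92, 8.36 and 8.15 CPM in PBS mice 1-1, 1-3, 2-1 and 2-5. The LLC1 values spanned the PBS values on both sides. Its log2 fold change was -0.08 (SE 0.15, 95% interval -0.41 to 0.26).

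Wnt5a (ENSMUSG00000021994, chromosome 14, 28504750 to 28527447) measured 10.1, 11.5, 14.2 and 11.4 CPM in LLC1 mice and 14.4, 15.7, 16.7 and 12.9 CPM in PBS mice, in the same order of mice. LLC1 1-5 lay above PBS 2-5, so the groups overlapped by that pair alone. The means were 11.8 ± 1.72 and 14.9 ± 1.62 CPM (SD, n = 4), and the log2 fold change was -0.34 (SE 0.12) with an adjusted p of 0.0996 in edgeR's quasi-likelihood test. The remaining log2 fold changes were -0.17 for Wnt5b, 0.17 for Wnt11 and 0.19 for Wnt2b, with adjusted p from 0.562 to 0.694 in the same edgeR test.

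The other 14 ligands were too low to be tested. Wnt3, Wnt7a, Wnt8a and Wnt10a had 0 counts in every mouse, and Wnt1, Wnt3a, Wnt7b and Wnt16 had between 0 and 2. Wnt2 (1 to 8 counts), Wnt4 (3 to 9), Wnt6 (1 to 12), Wnt8b (2 to 6), Wnt9b (2 to 11) and Wnt10b (0 to 10) were a little higher. Wnt6 had 3 to 12 counts in LLC1 and 1 to 3 in PBS mice, whereas Wnt10b had 0 to 4 in LLC1 and 1 to 10 in PBS mice. A ligand with 3 counts in a library had a level of 0.151 to 0.257 CPM.

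Several ligand genes sit beside each other in the genome, and their counts were as follows. Wnt9a, with 86 to 198 counts per mouse, lies 16.2 kb from Wnt3a, which had 0 or 1. Wnt6 lies 6.19 kb from Wnt10a (0 in every mouse), Wnt9b lies 24.3 kb from Wnt3 (0 in every mouse), and Wnt10b lies 11.7 kb from Wnt1 (0 or 1).

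**Figure D2:**
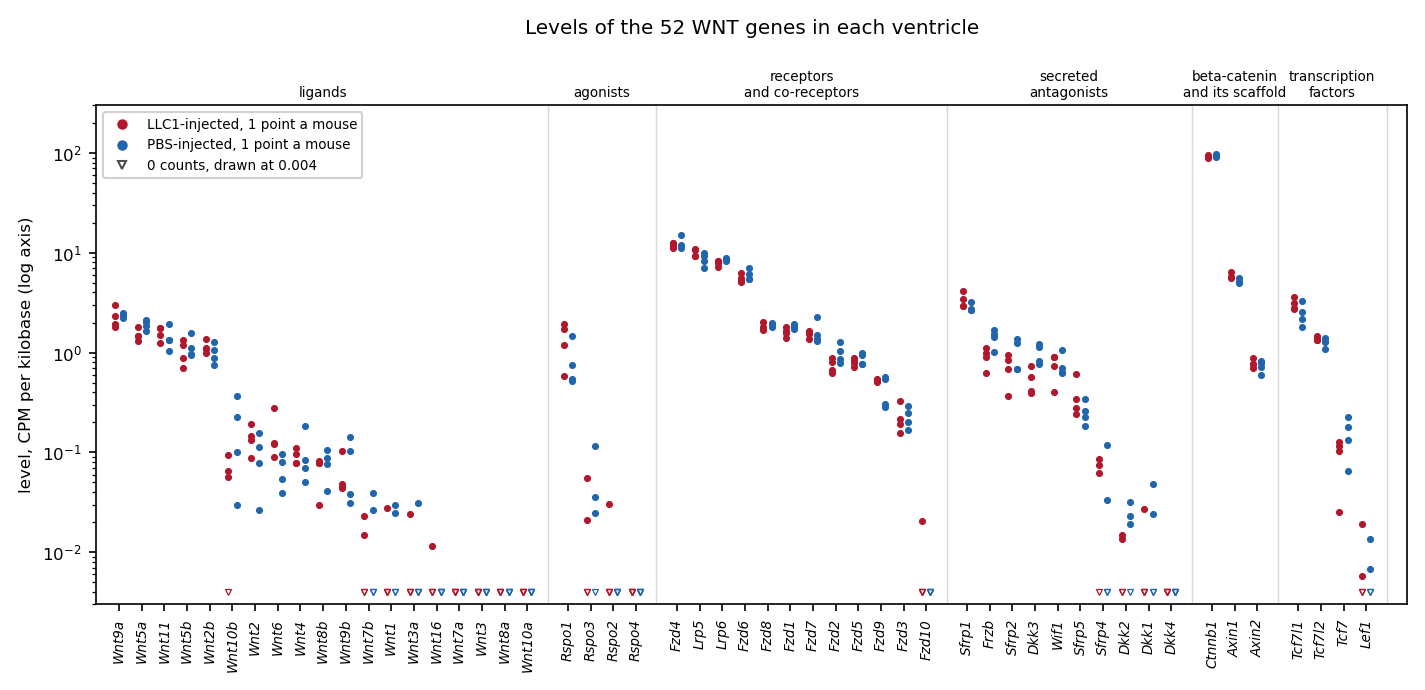
Level of each of the 52 genes in each mouse (y axis, CPM per kilobase, log scale), ordered by role and then by level, with LLC1 mice in red and PBS mice in blue and open triangles for 0 counts. Ctnnb1 stands far above all others, Fzd4, Lrp5 and Lrp6 lead the receptors, and 6 genes have 0 counts in every mouse.

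R-spondins are secreted ligands of the LGR receptors, and 1 of the 4, Rspo1, was tested. Rspo1 (ENSMUSG00000028871, chromosome 4, 124986430 to 125009099) reached 1.12, 3.36, 2.30 and 3.77 CPM in LLC1 mice and 1.46, 1.05, 1.00 and 2.83 CPM in PBS mice. It was low in LLC1 1-2 and high in PBS 2-5, so the groups overlapped broadly. The means were 2.64 ± 1.19 and 1.59 ± 0.856 CPM (SD, n = 4), and the log2 fold change of 0.73 (SE 0.39, 95% interval -0.12 to 1.58) had an adjusted p of 0.267 in edgeR's test. It was 0.49 without LLC1 2-2 and 1.20 without PBS 2-5 (adjusted p 0.0675 in the same edgeR test). The summed level of 10 epicardial and mesothelial markers, none at 0 in any mouse, varied too: 16.5, 84.3, 50.5 and 72.3 CPM in LLC1 and 25.9, 52.2, 33.4 and 64.4 CPM in PBS mice, with 0 of 10 past the threshold. LLC1 1-2 had the lowest sum and LLC1 1-3, LLC1 2-2 and PBS 2-5 the highest, as for Rspo1 at its upper end, and the part of these cells in its level was not tested. Rspo3 had 0 to 4 counts, Rspo2 0 to 2, and Rspo4 had 0 in every mouse.

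Of the 12 receptors and co-receptors 11 were tested, Fzd10 (0 or 1 counts) being the exception. Fzd4, a frizzled receptor prominent in blood vessels, accounted for 48.2 ± 1.38% of the summed frizzled level per kilobase in LLC1 and 47.2 ± 4.20% in PBS mice (SD, n = 4). Fzd6 was next, at 22.5% and 22.9%. The share of Fzd4 was at least 41.5% and that of Fzd6 at most 26.2% in any mouse, so these ranks held in every mouse. No other frizzled gene exceeded 8.42% in any mouse.

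Fzd4 (ENSMUSG00000049791, chromosome 7, 89404366 to 89410110) stood at 41.0, 43.4, 45.7 and 46.1 CPM in LLC1 and 43.6, 43.3, 41.1 and 55.1 CPM in PBS mice. Apart from PBS 2-5, the mice of both groups lay within the same range. The log2 fold change was -0.05 (SE 0.09, 95% interval -0.26 to 0.15).

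Fzd2 (ENSMUSG00000050288, chromosome 11, 102604396 to 102608058) gave the lowest fold change among the frizzled genes. Its level was 2.45, 2.30, 3.23 and 2.92 CPM in LLC1 and 3.17, 2.87, 3.83 and 4.66 CPM in PBS mice. The upper LLC1 values overlapped the lower PBS values, and the log2 fold change of -0.42 (SE 0.19) had an adjusted p of 0.186 in edgeR's test. The other frizzled genes tested, Fzd1, Fzd3, Fzd5, Fzd6, Fzd7, Fzd8 and Fzd9, had log2 fold changes from -0.18 (Fzd1) to 0.32 (Fzd9). Fzd9 was even among LLC1 mice, at 1.15 to 1.25 CPM (18 to 24 counts). PBS mice 1-1 and 2-1 had 1.29 and 1.24 CPM (15 and 21 counts). PBS mice 1-3 and 2-5 had 0.701 and 0.649 CPM (10 and 11 counts). These counts are low, and the split among PBS mice was not tested.

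The co-receptors Lrp5 and Lrp6 were close to each other in level. Lrp6 (ENSMUSG00000030201, chromosome 6, 134446476 to 134566965) was at 71.2, 81.1, 81.1 and 76.8 CPM in LLC1 mice and 83.2, 81.7, 86.6 and 84.1 CPM in PBS mice. All LLC1 values lay under all PBS values, by a small margin between 81.1 and 81.7 CPM. The means of 77.6 ± 4.67 and 83.9 ± 2.05 CPM (SD, n = 4) gave a log2 fold change of -0.11 (SE 0.06, 95% interval -0.25 to 0.02). The adjusted p was 0.273 in edgeR's test. The exact permutation p was 0.0286 (2-sided), the smallest that 4 mice against 4 allow. Any gene whose groups do not overlap reaches this permutation p.

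Lrp5 (ENSMUSG00000024913, chromosome 19, 3584828 to 3686564) moved the other way in its mean, with 89.4, 105, 91.0 and 104 CPM in LLC1 mice and 69.2, 80.8, 90.2 and 97.8 CPM in PBS mice. PBS 2-1 and PBS 2-5 lay within the range of the LLC1 mice, and the log2 fold change of 0.20 (SE 0.10) had an adjusted p of 0.231 in edgeR's test. Lrp5 made up 55.8 ± 1.98% of the summed level per kilobase of both co-receptors in LLC1 mice and 50.2 ± 3.49% in PBS mice (SD, n = 4). This share was computed after the values of both genes had been seen and was not tested.

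Secreted antagonists held the single gene past the threshold, with 5 of 10 genes tested. Dkk3 (ENSMUSG00000030772, chromosome 7, 112116019 to 112159057) encodes a divergent member of the Dickkopf family, whose effect on WNT signaling depends on the cell type. Its level was 1.39, 1.91, 1.31 and 2.47 CPM in LLC1 mice 1-2, 1-3, 1-5 and 2-2 and 2.57, 3.79, 2.77 and 4.13 CPM in PBS mice 1-1, 1-3, 2-1 and 2-5. All LLC1 values lay under all PBS values, with LLC1 2-2 and PBS 1-1 nearest to each other. The means were 1.77 ± 0.534 and 3.31 ± 0.762 CPM (SD, n = 4), which is a fold of 0.536. The log2 fold change was -0.90 (SE 0.24, 95% interval -1.42 to -0.38), with an adjusted p of 0.0377 in edgeR's quasi-likelihood test. The exact permutation p of 0.0286 follows from the lack of overlap, which 17.2% of all genes tested shared. It adds no support of its own.

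The Dkk3 difference rested on 21 to 70 counts per mouse. It passed the threshold in all 8 alternatives that kept every mouse (adjusted p 0.0144 to 0.0477, edgeR, DESeq2 or limma-voom), but in only 3 of the 8 edgeR fits that left out a mouse. These 3 were without LLC1 2-2, without PBS 1-1 and without PBS 2-1. Without LLC1 1-2, 1-3 or 1-5 or PBS 1-3 or 2-5 the adjusted p was 0.0995, 0.0833, 0.107, 0.108 and 0.0748, and the log2 fold change over the 8 fits was -1.13 to -0.77. Within mice whose code begins with 1 the difference of mean log2 CPM (prior count 2) was -0.98 (3 LLC1, 2 PBS mice), and within those whose code begins with 2 it was -0.44 (1 LLC1, 2 PBS mice). What this first number stands for is not given in the labels.

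Markers of 4 other cell types of the heart were read beside this, where 4.12% of all genes tested were higher and 4.61% lower. Of 10 fibroblast markers, 4 were lower and 0 higher (Col1a1, Col1a2, Col3a1 and Lum, median log2 fold change of the list -0.34), with a summed level of 2494 to 2830 CPM in LLC1 and 2446 to 3124 CPM in PBS mice. Of 10 endothelial markers 2 were lower (median -0.22, summed 1010 to 1168 against 1119 to 1494 CPM), and of 10 macrophage markers 2 were lower (median -0.28, summed 320 to 401 against 351 to 509 CPM). Of 10 smooth muscle and pericyte markers 0 passed the threshold (median -0.06, summed 1346 to 1391 against 1458 to 1665 CPM). No marker of these 4 lists was at 0 in any mouse, and their part in the Dkk3 result was not tested.

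Frzb (ENSMUSG00000027004, chromosome 2, 80411970 to 80447625), which encodes the frizzled-related protein sFRP3, showed 3.24, 2.90, 2.02 and 3.57 CPM in LLC1 mice and 3.26, 5.40, 5.00 and 4.66 CPM in PBS mice. PBS mice 1-3, 2-1 and 2-5 lay above all LLC1 mice, and PBS 1-1 lay among them. The log2 fold change of -0.65 (SE 0.20, 95% interval -1.09 to -0.21) missed the threshold, with an adjusted p of 0.0652 in edgeR's test. It passed in 1 of 8 alternatives that kept every mouse, DESeq2 (adjusted p 0.0432). The others gave an adjusted p of 0.0562 to 0.0805 (edgeR or limma-voom). Of the 8 edgeR fits that left out a mouse it passed in 1, without PBS 1-1 (log2 fold change -0.77, adjusted p 0.0164). The others of these edgeR fits gave an adjusted p of 0.0676 to 0.173.

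Per kilobase, Sfrp1, a secreted frizzled-related protein that binds WNT ligands, was the highest antagonist in both groups, with 50.4 ± 6.09% of their summed level in LLC1 and 38.7 ± 3.79% in PBS mice (SD, n = 4). Sfrp1 (ENSMUSG00000031548, chromosome 8, 23411502 to 23449632) was at 18.3, 15.1, 12.7 and 12.9 CPM in LLC1 and 11.8, 11.8, 11.9 and 13.9 CPM in PBS mice. Only PBS 2-5 reached into the LLC1 range. The log2 fold change of 0.25 (SE 0.12, 95% interval -0.02 to 0.52) had an adjusted p of 0.223 in edgeR's test. The share of Sfrp1 also depends on the levels of the other antagonists, and its difference between groups was not tested.

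Sfrp2, with 0.794, 2.04, 1.81 and 1.46 CPM in LLC1 and 1.46, 2.94, 2.71 and 1.48 CPM in PBS mice, had a log2 fold change of -0.50 and an interval from -1.17 to 0.18 that leaves its direction undetermined. Wif1, with 0.985 to 2.18 CPM in LLC1 and 1.53 to 2.57 CPM in PBS mice, had -0.04 (95% interval -0.64 to 0.55). The classical co-receptor inhibitors were at or near 0 counts in both groups. Dkk1 and Dkk2 had 0 to 2 counts and Dkk4 had 0 in every mouse, while Sfrp4 had 0 to 3 and Sfrp5 had 5 to 21.

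**Figure D3:**
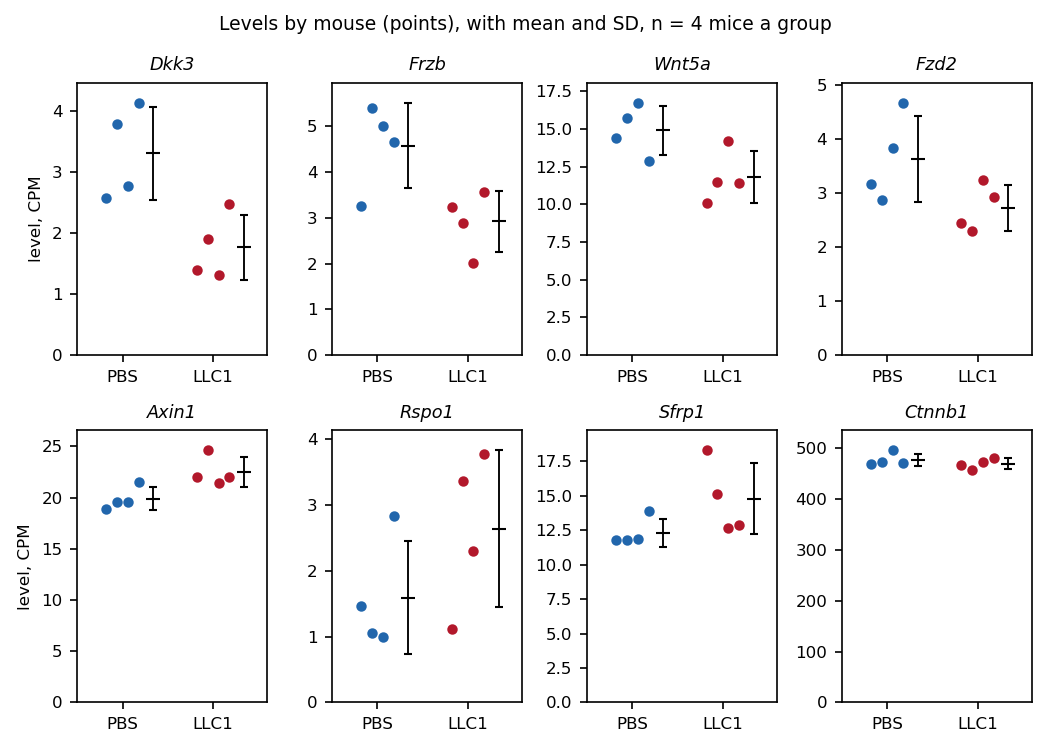
Level in each mouse (y axes, CPM, starting at 0) of 8 genes, with the mean and SD of the 4 mice of each group beside the points. For Dkk3 the 4 LLC1 mice lie at 1.31 to 2.47 CPM, all below the PBS mice at 2.57 to 4.13 CPM. For Frzb 1 PBS mouse lies among the LLC1 mice, and for Ctnnb1 the LLC1 mice lie at 456 to 481 CPM and the PBS mice at 469 to 495 CPM.

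Ctnnb1 (ENSMUSG00000006932, chromosome 9, 120929216 to 120960507), which encodes beta-catenin, a protein of cell junctions as well as of WNT signaling, was by far the most abundant transcript of the 52, at 92.0 and 93.4 CPM per kilobase in LLC1 and PBS mice. It measured 467, 456, 472 and 481 CPM in LLC1 mice and 469, 472, 495 and 470 CPM in PBS mice. The groups overlapped, and the log2 fold change of -0.02 (SE 0.06, 95% interval -0.14 to 0.10) was the most precise of its role. Its protein level and location, which carry the signal, were not measured by these counts.

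Axin1 encodes the scaffold of the destruction complex. It was at 22.0, 24.6, 21.4 and 22.0 CPM in LLC1 and 18.9, 19.6, 19.6 and 21.5 CPM in PBS mice. PBS 2-5, at 21.5 CPM, overlapped the lowest LLC1 mouse. The log2 fold change was 0.17 (SE 0.08), with an adjusted p of 0.192 in edgeR's test.

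Axin2 (ENSMUSG00000000142, chromosome 11, 108920349 to 108950783) encodes a second axin and is itself induced by beta-catenin, so that its transcript is a common readout of the canonical branch. It was at 3.84, 4.21, 4.21 and 4.88 CPM in LLC1 and 3.95, 3.30, 4.53 and 4.31 CPM in PBS mice. The groups overlapped over most of their range, and the log2 fold change of 0.09 (SE 0.15, 95% interval -0.23 to 0.41) had an adjusted p of 0.738 in edgeR's test.

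Of the transcription factors, Tcf7l1, known mainly as a repressor of WNT target genes, made up 67.3 ± 4.19% of the summed TCF and LEF level per kilobase in LLC1 and 62.9 ± 4.29% in PBS mice (SD, n = 4), with Tcf7l2 at 30.5% and 33.2%. Tcf7l1 (ENSMUSG00000055799, chromosome 6, 72626378 to 72789254) had 11.0, 14.2, 10.6 and 12.4 CPM in LLC1 and 7.04, 8.55, 10.1 and 13.0 CPM in PBS mice. PBS 2-5 lay among the LLC1 mice and the other PBS mice below them. The log2 fold change was 0.30 (SE 0.17, 95% interval -0.06 to 0.66), and that of Tcf7l2 was 0.12 (SE 0.10). The other two factors were near the limit of detection, with 1 to 10 counts for Tcf7 and 0 to 3 for Lef1.

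TCF and LEF proteins bind DNA at a short motif, searched here as CTTTGAT or CTTTGAA on either strand (ATCAAAG or TTCAAAG on the other) in RefSeq promoter windows of GRCm38.p6 that run from 250 bases before to 50 bases after a start. Of all 32851 windows 8.65% held it. Of the 52 genes 35 had at least 1 window, 44 windows in all, of which 3 held it (6.82%), 1 each of Wnt11, Wnt5b and Dkk1. The windows of Wnt11, a tested ligand with the motif, and of Axin2, the readout of beta-catenin, are shown 5′ to 3′ with the motif in capitals, from chr7:98834862-98835161 and chr11:108920099-108920398, both on the plus strand.
Wnt11: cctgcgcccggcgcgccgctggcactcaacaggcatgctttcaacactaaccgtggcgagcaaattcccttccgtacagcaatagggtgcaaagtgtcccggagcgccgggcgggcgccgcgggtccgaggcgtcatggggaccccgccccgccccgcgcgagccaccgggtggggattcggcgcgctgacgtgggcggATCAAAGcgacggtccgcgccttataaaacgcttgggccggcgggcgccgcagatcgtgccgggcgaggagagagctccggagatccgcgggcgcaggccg
Axin2: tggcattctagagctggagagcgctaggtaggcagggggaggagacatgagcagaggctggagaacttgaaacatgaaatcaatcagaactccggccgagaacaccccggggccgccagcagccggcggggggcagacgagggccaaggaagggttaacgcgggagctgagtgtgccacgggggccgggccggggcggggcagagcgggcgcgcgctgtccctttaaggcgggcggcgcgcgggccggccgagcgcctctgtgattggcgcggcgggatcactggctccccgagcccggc
The motif of Wnt11 begins 51 bases before the start, and its transcript had a log2 fold change of 0.17 (adjusted p 0.591 in edgeR's test). That of Wnt5b begins 71 bases before the start, and the Wnt5b transcript had a log2 fold change of -0.17 (adjusted p 0.694 in the same edgeR test). The motif of Dkk1, a gene too low to be tested, begins 117 bases before the start. In the Axin2 window these letters do not occur, which says nothing about sites elsewhere in the gene. A match is a run of letters and not a measured binding site.

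A list of 20 widely used beta-catenin target genes, which includes Axin2, Lef1 and Tcf7, was measured beside them. Of these, 14 were tested, 0 were higher and 3 were lower (Ccnd1, Cd44 and Vcan), and the median log2 fold change was 0.02 where all genes had -0.01. The share lower among all genes tested was 4.61%. Of the genes that did not pass, Myc (0.41, 95% interval -0.05 to 0.87), Notum (0.26, -0.21 to 0.73) and Wisp2 (0.60, -0.03 to 1.23) had positive log2 fold changes. Their intervals all included 0. Wisp2 passed in 1 of 8 alternatives (adjusted p 0.0447 in edgeR with the first number of the code as covariate). Estimates lay near 0 for Nkd1 (-0.11, 95% interval -0.78 to 0.56), Znrf3 (0.04, -0.29 to 0.37), Apcdd1 (0.01, -0.52 to 0.55) and Tnfrsf19 (0.02). The interval of Nkd1 did not lie within 1.5-fold. Wisp1 (-0.53, adjusted p 0.116 in edgeR's test) had groups that did not overlap. Sp5 had 0 counts in every mouse.

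Ccnd1, which encodes cyclin D1 of the cell cycle and has many regulators besides beta-catenin, was at 40.4, 45.6, 39.3 and 46.0 CPM in LLC1 and 75.4, 115, 79.5 and 87.8 CPM in PBS mice. The groups lay far apart, and the log2 fold change of -1.06 (SE 0.12) had an adjusted p of 0.000781 in edgeR's test. Its exons share 23.4% of their bases with LTO1 on the other strand, a gene at 31.8 CPM beside the 66.2 CPM of Ccnd1 whose own log2 fold change was -0.50, and the use of strand in the counting is not stated. Markers of dividing cells fell too, with 6 of 6 tested of 10 listed lower (median log2 fold change -2.55, summed level 8.16 to 10.5 CPM in LLC1 and 23.4 to 65.0 CPM in PBS mice, 2 of the 10 at 0 in some mouse), and their part in the Ccnd1 result was not tested.

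Vcan, the matrix proteoglycan versican, was at 10.7, 11.3, 15.7 and 13.1 CPM in LLC1 and 24.0, 31.3, 27.4 and 24.1 CPM in PBS mice, again without overlap, with a log2 fold change of -1.07 (SE 0.13) and an adjusted p of 0.00103 in edgeR's test. Cd44, a hyaluronan receptor, was at 9.76 to 11.2 CPM in LLC1 and 12.1 to 18.5 CPM in PBS mice. Its log2 fold change was -0.51 (SE 0.12), with an adjusted p of 0.0273 in the same edgeR test. It passed in 3 of 8 fits that left out a mouse. Of the markers given above, 4 of 10 fibroblast, 2 of 10 endothelial, 2 of 10 macrophage and 0 of 10 smooth muscle and pericyte markers were lower. The share lower among all genes tested was 4.61%. The part of these cells in the Vcan and Cd44 results was not tested.

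**Figure D4:**
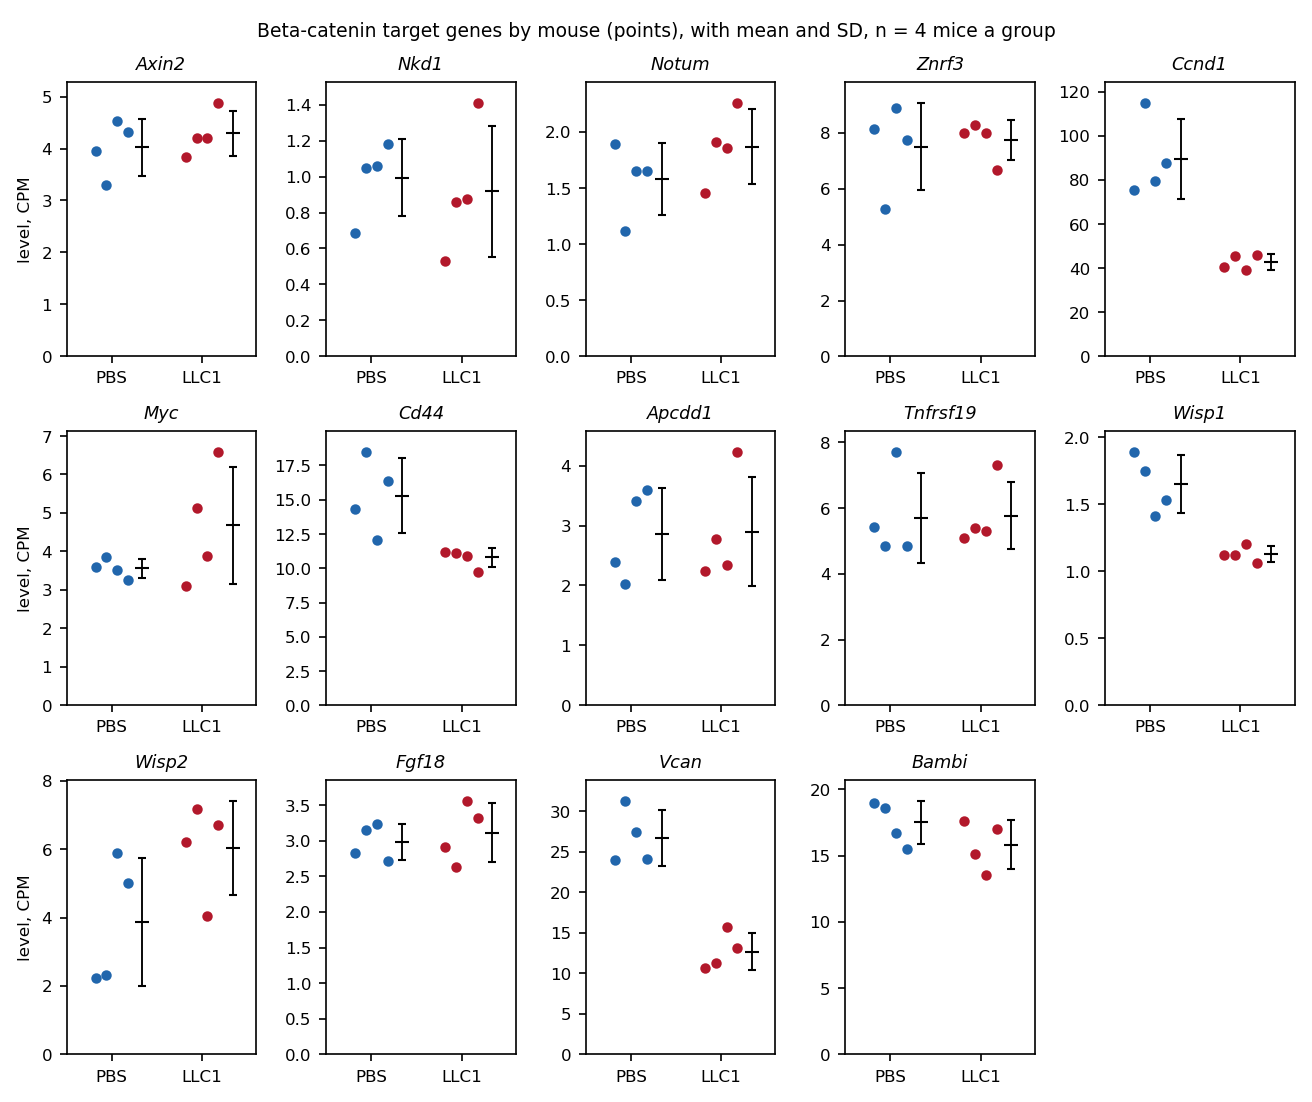
Level in each mouse (y axes, CPM, starting at 0) of the 14 beta-catenin target genes tested, with the mean and SD of the 4 mice of each group beside the points. The groups lie apart for Ccnd1, Cd44, Vcan and Wisp1, with LLC1 mice lower, and overlap for the other 10 genes, Axin2 among them.

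Over the wider pathway, counting these targets other than the 52 genes themselves, 99 further genes were listed and 89 tested, of which 2 were higher and 3 lower in LLC1 mice, with a median log2 fold change of -0.05, against 8.73% of all genes tested that passed in either direction. All 3 genes of ligand making and release were tested and 0 passed, Wls, the carrier of WNT proteins to the surface, having 50.6 ± 1.78 and 54.4 ± 2.72 CPM (SD, n = 4). Of 12 other receptors and genes of receptor turnover 8 were tested and 0 passed, and of 11 other secreted or membrane antagonists 7 were tested and 0 passed. Of 25 genes of the planar polarity and calcium branches all were tested and 0 passed, with 17 negative and 8 positive fold changes.

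Of 24 genes of the cytoplasmic relay and destruction complex 1 was higher, where 4.12% of all genes tested were, so this count is no result about the list. The gene was Dvl2, a dishevelled protein that relays the signal from frizzled receptors, at 947, 850, 885 and 792 CPM in LLC1 and 711, 700, 687 and 732 CPM in PBS mice, without overlap (log2 fold change 0.30, SE 0.07, adjusted p 0.0207 in edgeR's test). It passed in 7 of 8 alternatives with all mice and in 3 of 8 fits that left out a mouse, and 18.3% of its exon bases lie in Acadvl on the other strand, a gene of fatty acid oxidation at 1473 CPM whose log2 fold change was 0.26. Of 13 nuclear cofactors 1 was likewise higher, Bcl9l, which couples beta-catenin to its partners, at 46.7, 61.5, 51.1 and 55.4 CPM in LLC1 and 32.0, 37.9, 39.4 and 49.6 CPM in PBS mice. PBS 2-5 overlapped the lowest LLC1 mouse, and the log2 fold change of 0.43 (SE 0.12, adjusted p 0.0492 in edgeR's test) passed in 5 of 8 alternatives and in 1 of 8 fits that left out a mouse. Without PBS 1-1, Bcl9l lost its call (log2 fold change 0.34, adjusted p 0.0561 in edgeR's test), and 2 genes of the cytoplasmic relay list passed as lower, Apc2 (-0.31 with all mice and -0.35 without, adjusted p 0.0663 and 0.0348) and Ccdc88c (-0.48 and -0.64, adjusted p 0.156 and 0.0150).

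Some exon bases of 8 of the 27 genes tested also belong to another gene in GENCODE M21. The shares were 17.8% for Fzd5, 16.1% for Sfrp2, 14.6% for Ctnnb1, 8.80% for Wnt11, 4.58% for Wnt5a, 4.56% for Tcf7l1, 3.80% for Axin2 and 3.15% for Fzd6, each with a gene on the other strand. Without knowledge of strand, reads from these stretches cannot be assigned to one gene. The overlapping genes had lower mean levels, for example Ulk4 at 24.6 CPM beside Ctnnb1 at 473 CPM. Gm26771 was at 0.392 CPM beside Sfrp2 at 1.84 CPM, and Gm15401 at 1.67 CPM beside Tcf7l1 at 10.9 CPM. The part of shared reads in the levels of the 8 genes was not tested.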

How the data were processed

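Total RNA of ventricles was made into TruSeq libraries and sequenced as paired reads of 150 bases. The authors deposited raw counts of reads per gene, not normalized, on mm10 coordinates. The submitters' processing notes name CASAVA, STAR and featureCounts, with no version given. The annotation and the use of strand are not given in the sources used here.

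Counts were compared with edgeR 4.0.16 in R 4.3.3 (filterByExpr, TMM factors, quasi-likelihood F-test, Benjamini-Hochberg adjustment over 16111 genes), LLC1 against PBS, unpaired, n = 4 mice per group. SDs are taken over the 4 mice of a group and include counting variation. The p-values test the difference between groups against the variation between mice, which edgeR moderates over genes. Single genes also had a 2-sided exact permutation test of log2 CPM (prior count 2) over the 70 arrangements of the mice. CPM per kilobase uses the length in the deposited file. Alternatives were DESeq2 1.42.0, limma-voom (limma 3.58.1), upper-quartile and total-count scaling, 2 other count filters, the first number of the mouse code as covariate, robust empirical Bayes, and each mouse left out in turn. The edgeR test was tested on simulated data. Shared exons were counted in GENCODE M21, and promoters are from RefSeq.

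The genes and lists were chosen with earlier results of these data known, and support nothing on their own. Every gene of the set is named. Genes past the threshold, with groups that do not overlap or leading their role in level are given by mouse. Frzb, Wnt5a, Fzd2, Axin1, Rspo1, Lrp5, Fzd9, Sfrp2 and Axin2 were added after their values were seen, as were the target genes below the threshold. Other steps used Python 3.11.15, pandas 2.3.3, scipy 1.17.1 and matplotlib 3.10.9.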

Additional observations from a re-analysis of the deposited data

Results flagged for a closer look

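In each of the 54 groups of 4 mice formed by the 27 genes tested, the mouse farthest from the others was compared with Dixon's critical value for 4 samples, and 4 groups exceeded it, where chance alone marks about 1 in 20 groups. Sfrp1 in PBS 2-5 was at 13.9 CPM, with the other PBS mice at 11.8 to 11.9 CPM. Ctnnb1 in PBS 2-1 was at 495 CPM, with the others at 469 to 472 CPM. Wif1 in PBS 1-1 was at 2.57 CPM, with the others at 1.53 to 1.71 CPM. Axin1 in LLC1 1-3 was at 24.6 CPM, with the other LLC1 mice at 21.4 to 22.0 CPM.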

How the results depend on the processing

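The number of genes higher in LLC1 mice was 0 in every alternative and every fit without a mouse. The number lower was 1 in each alternative except DESeq2, which gave 2 (Dkk3 and Frzb), and 0 to 2 when a mouse was left out. The median log2 fold change of the genes tested was -0.10 to -0.02 over all fits. Over all genes 1406 passed the threshold, 1018 to 1757 in the alternatives and 542 to 1949 when a mouse was left out, the lowest without PBS 1-3 and the highest without PBS 1-1. Of the 99 other pathway genes 5 passed, 8 with the first number of the code as covariate and 2 to 7 when a mouse was left out, and the cause was not tested. For single genes, 214 of 216 values from alternatives with all mice kept their direction and their side of the threshold. Of the 2 that did not, Frzb passed with DESeq2 and Fzd7 went from -0.07 to 0.03 with the covariate. When a mouse was left out, 200 of 216 did so, 10 changed sign in 6 genes, none of them past the threshold in edgeR's test, 5 were Dkk3 losing its call, and 1 was Frzb gaining one. The ranges of the log2 fold changes that changed sign were -0.33 to 0.02 for Wnt5b, -0.25 to 0.01 for Wnt9a, -0.28 to 0.12 for Fzd3, -0.11 to 0.04 for Fzd4, -0.16 to 0.14 for Fzd7 and -0.15 to 0.16 for Wif1. Without PBS 1-1, whose library stood apart, the log2 fold change of 9 genes, none past the threshold, moved by over 1.5 times, among them Lrp5 (0.20 to 0.12), Tcf7l1 (0.30 to 0.18), Wnt2b (0.19 to 0.08), Wnt11 (0.17 to 0.34), Fzd5 (-0.11 to -0.05), Fzd7 (-0.07 to -0.14) and Wif1 (-0.04 to 0.13). Leaving out any 1 mouse gave log2 fold changes of 0.49 to 1.20 for Rspo1, -0.66 to -0.30 for Sfrp2, 0.14 to 0.32 for Sfrp1 and 0.16 to 0.49 for Fzd9. The same fits gave -0.18 to -0.03 for Fzd6, 0.05 to 0.34 for Wnt11, 0.00 to 0.15 for Axin2 and 0.04 to 0.17 for Tcf7l2. No paired analysis was possible because the groups share only 1 code, 1-3, which different animals carry. Total-count scaling moved the median of all genes to -0.065 from -0.010. The 25 genes under the filter had at most 21 counts in any mouse, and the effect of depth on them was not tested. With every gene of at least 1 count included, 19 of them could be fitted, 0 passed in edgeR's test, and 1, Wnt10b (0 to 4 counts in LLC1 and 1 to 10 in PBS mice), had an unadjusted p under 0.05, with an adjusted p of 0.224.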
